A study of Mus musculus with 8 samples.

Results

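Expression of Atp2b1 and of 9 further genes that move calcium ions across cell membranes was examined by RNA sequencing of total splenocytes from 8 female Balb/c mice. Of these mice, 4 received all-trans retinoic acid (tRA), the active metabolite of vitamin A, by mouth every day from weaning until 3 months of age, and 4 control mice received the vehicle, canola oil, over the same period. None of the 8 mice received pristane, the agent that induces lupus in this model. The treatment field of the sample labels carries tRA at 1 mg/kg for all 8 mice, controls included, whereas the published account of this experiment names vehicle for the control mice. The grouping used here follows the sample titles, as do the mouse numbers, and the same number in both groups was not taken to mark a pair. The 10 genes, out of 51826 in the count table, comprised the plasma membrane calcium pumps Atp2b1 and Atp2b4, the endoplasmic reticulum calcium pumps Atp2a2 and Atp2a3, the store-operated channel Orai1 with its sensors Stim1 and Stim2, and the inositol trisphosphate receptors Itpr1, Itpr2 and Itpr3. Atp2b1 was chosen by its difference between tRA and control in these same 8 mice. Its contrast is therefore given as a description without a test. The other 9 genes were chosen by role, with earlier results of these data known. Counts on genes totaled between 30919272 and 37539631 per control mouse and between 31810417 and 35165876 per tRA mouse.

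A resting lymphocyte holds very little free calcium in its cytosol and stores calcium in the endoplasmic reticulum. When an antigen receptor is engaged, phospholipase C makes inositol trisphosphate, which opens receptors in the reticulum membrane, and the emptied store is sensed by Stim proteins that open Orai channels in the plasma membrane. Pumps of the plasma membrane and of the reticulum then return the cytosol to its resting level, while the sustained signal acts through calmodulin, calcineurin and NFAT transcription factors.

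The libraries had the marker genes of spleen. In what follows, the gene that leads a list is the one with the highest mean CPM over the 8 mice, a measure that is not set per length. Summed over 5 B cell genes, expression was 5064 ± 393 CPM (counts scaled to a common library size; SD, n = 4) in control mice and 5113 ± 107 CPM (SD, n = 4) in tRA mice, with Cd79a, a part of the B cell receptor, as the most abundant gene. For 6 T cell genes, led by Trac, a chain of the T cell receptor, the sums were 1069 ± 110 CPM (SD, n = 4) and 1167 ± 21.7 CPM (SD, n = 4). Both sums overlapped between the groups. Other sums with overlapping groups were those of 4 NK cell genes (186.5 to 317 CPM over the 8 mice, led by Gzma), 5 mature neutrophil genes (458 to 888.5 CPM, led by Csf3r), 5 macrophage and monocyte genes (317 to 531 CPM, led by Csf1r) and 6 dendritic cell genes (119.7 to 208 CPM, led by Itgax). Within the mature neutrophil list, 3 of the 5 genes had a negative log2 fold change, among them S100a8 and S100a9 (-0.63 and -0.58, FDR 0.757 for both), and 2 a positive one, Cxcr2 (0.39) and Csf3r (0.25), all with overlapping groups. The sum of 5 plasma cell genes, led by Jchain, was 685 to 884 CPM in control mice and 503.5 to 700.4 CPM in tRA mice, where only tRA mouse 2 reached the control range. Of this list, Sdc1 and Tnfrsf17 separated the groups, with the tRA mice below, and Jchain had a log2 fold change of -0.46 (FDR 0.757) with overlapping groups, whereas Xbp1 (0.020) and Prdm1 (0.11) had positive ones. Transcripts of 4 endothelial genes ranged from 242 to 266 CPM and were led by Pecam1, those of 5 platelet genes from 6.42 to 8.58 CPM, led by Itga2b, and those of 5 smooth muscle and stroma genes from 4.47 to 7.58 CPM, led by Pdgfrb. The 7 erythroid genes, led by Hbb-bs, varied most, from 522 CPM in control mouse 4 to 3708 CPM in tRA mouse 3. Within single groups the lead changed in 2 of the lists above, to S100a9 among the mature neutrophil genes in control mice and to Acta2 among the smooth muscle genes in tRA mice.

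The sums of 2 marker lists separated the groups. For 8 genes of neutrophil precursors, led by the granule gene Ngp, the sums were 542, 680.0, 715.5 and 614 CPM in control mice 1 to 4 and 242, 301, 329 and 477 CPM in tRA mice 1 to 4, with all 8 genes at a negative log2 fold change. For 6 genes that respond to cell handling, the immediate early genes Fos, Fosb, Jun and Egr1 and the heat shock genes Hspa1a and Hspa1b, the sums were 11860, 11540, 12660 and 9925 CPM in the control mice and 9525, 8630, 4273 and 6068 CPM in the tRA mice, with all 6 at a negative log2 fold change and Fos in the lead over the 8 mice, although Fosb was higher than Fos in control mice (3319 against 3184 CPM). The name of the second list is a label, and whether handling or tRA lay behind its lower sums in tRA mice was not tested. No gene of any marker list was at 0 in all 8 mice. Of the 10 calcium genes, Atp2b1 alone separated the groups as these 2 sums did, in the opposite direction, and their part in its difference was not tested. In bulk splenocytes, fewer cells of a type and less RNA per cell cannot be told apart.

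**Figure D1:**
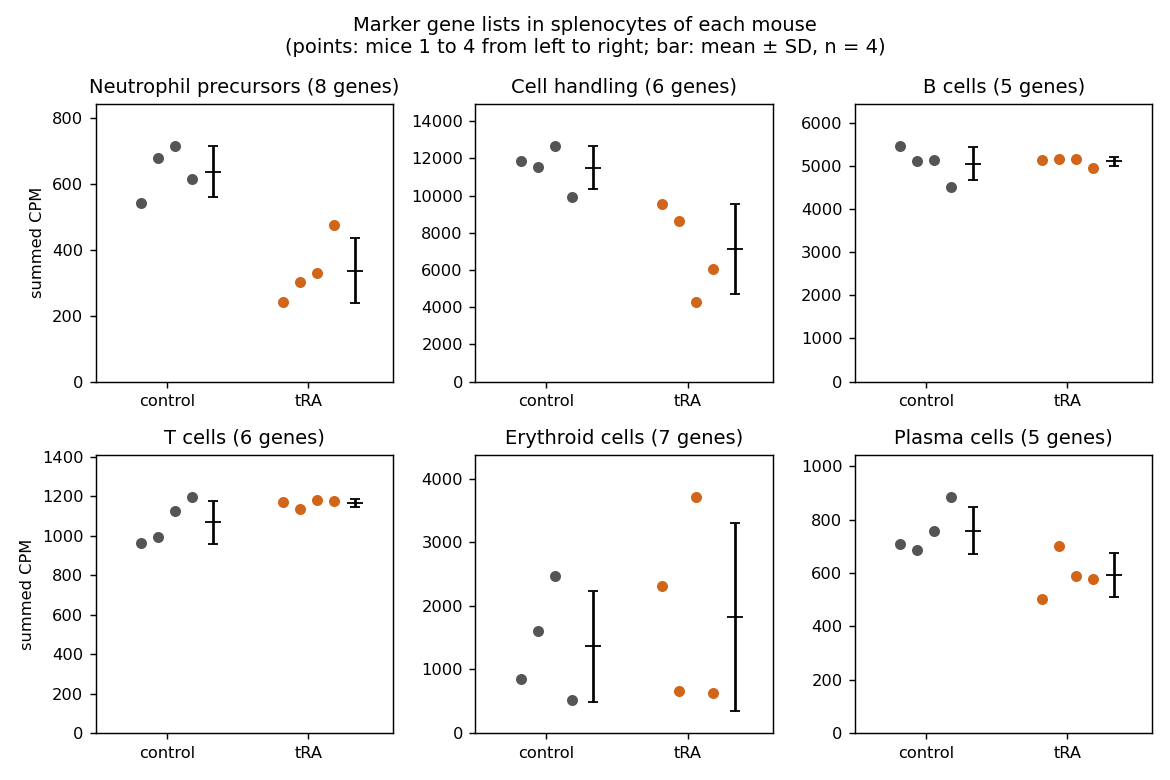
Summed CPM (y axis) of 6 marker gene lists in the 4 control and 4 tRA mice (x axis), each on its own scale that starts at 0. Points are mice and bars are means ± SD (n = 4). The neutrophil precursor sums of the tRA mice lie between 242 and 477 CPM and those of the control mice between 542 and 715.5 CPM, while the B cell and T cell sums overlap.

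Across all genes, 16484 had counts high enough to be tested, and all 10 calcium genes were among them. The quasi-likelihood test of edgeR was used, with FDR values from the Benjamini-Hochberg method over all of these genes. At an FDR under 0.1, the threshold of the study, 0 genes were called (0.0% of those tested), and so 0 of the 9 genes chosen by role. By other tools, DESeq2 called 27 genes and limma-voom 1. An unadjusted p under 0.05 by edgeR was seen for 1070 genes (6.49%), with 485 higher and 585 lower in tRA mice. This count was 2105 without tRA mouse 1 and 657 without tRA mouse 4. Of the 9 genes chosen by role, 0 had an unadjusted p under 0.05, and the groups overlapped for all 9.

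Atp2b1 (ENSMUSG00000019943, chr10:98914406-99026143 in GRCm38, plus strand) encodes PMCA1, the calcium pump found in the plasma membrane of most cells, which is stimulated by calmodulin. Its expression was 146, 137, 121 and 130.4 CPM in control mice 1 to 4 and 171, 163, 159 and 182 CPM in tRA mice 1 to 4. The lowest tRA mouse lay above the highest control mouse, so the groups did not overlap. Group means were 133.6 ± 10.5 CPM (SD, n = 4) in control mice and 168.5 ± 10.2 CPM (SD, n = 4) in tRA mice, a log2 fold change of 0.335. These values rest on 4035 to 5943 counts per mouse. Groups that do not overlap, with tRA above control, were found for 315 of all genes tested (1.91%), and with tRA below control for 269 (1.63%). As Atp2b1 was picked on this contrast, nothing is read from its separation. The difference was 0.28 on the log2 scale without control mouse 3 and 0.38 without control mouse 1, the lowest and highest values with any mouse left out.

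Atp2b4 (ENSMUSG00000026463, chr1:133699457-133801041, minus strand) encodes PMCA4, the other plasma membrane calcium pump measured in quantity in these cells. Its expression was 22.8, 31.9, 27.4 and 31.7 CPM in the control mice and 21.8, 30.1, 44.5 and 38.7 CPM in the tRA mice. Mouse 1 was the lowest of each group, tRA mice 3 and 4 were above every control mouse, and the groups overlapped. The difference of 0.25 on the log2 scale (standard error 0.195) had an FDR of 0.821, and it was 0.085 without tRA mouse 3 and 0.41 without tRA mouse 1. The remaining pumps of this family were scarce. Atp2b2 made up at most 0.403% of the family in any mouse, and Atp2b3 was too low to be tested.

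Within the plasma membrane pump family, Atp2b1 was the main transcript. Expression was divided by the length of the union of exons of each gene to give CPM per kb, and Atp2b1 then took 83.7, 77.5, 77.8 and 76.4% of the family in the control mice and 86.1, 81.2, 74 and 79.0% in the tRA mice. The highest share in each group was that of mouse 1, the mouse with the least Atp2b4, and the lowest of all was that of tRA mouse 3, which had the most. The shares of 78.8 ± 3.28% (SD, n = 4) and 80.1 ± 5.03% (SD, n = 4) differed by less than the spread between mice.

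The pumps of the endoplasmic reticulum refill the calcium store. Atp2a3 (ENSMUSG00000020788, chr11:72961169-72993044, plus strand), which encodes the SERCA3 pump of blood cells, was expressed at 859, 833, 802 and 748 CPM in the control mice and 851, 800.1, 853 and 772 CPM in the tRA mice. Mouse 4 was the lowest of both groups, and the groups covered almost the same range. The log2 fold change was 0.0155 (standard error 0.0741, FDR 0.980). Atp2a2 (ENSMUSG00000029467, chr5:122453513-122502225, minus strand), which encodes the widely expressed SERCA2, was at 123, 122, 103 and 131 CPM in the control mice and 115, 132, 135 and 134 CPM in the tRA mice. Control mouse 3 and tRA mouse 1 were the low mice, the other 3 tRA mice exceeded all control mice, and the groups overlapped (log2 fold change 0.11, standard error 0.0847, FDR 0.821). The value was 0.036 without control mouse 3 and 0.16 without tRA mouse 1. Of the family's CPM per kb, Atp2a3 took 86.0 to 89.3% and Atp2a2 9.97 to 13.1% over the 8 mice, and Atp2a1, the pump of fast skeletal muscle, took under 1% in each mouse. The shares of all 3 pumps overlapped between the groups.

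**Figure D2:**
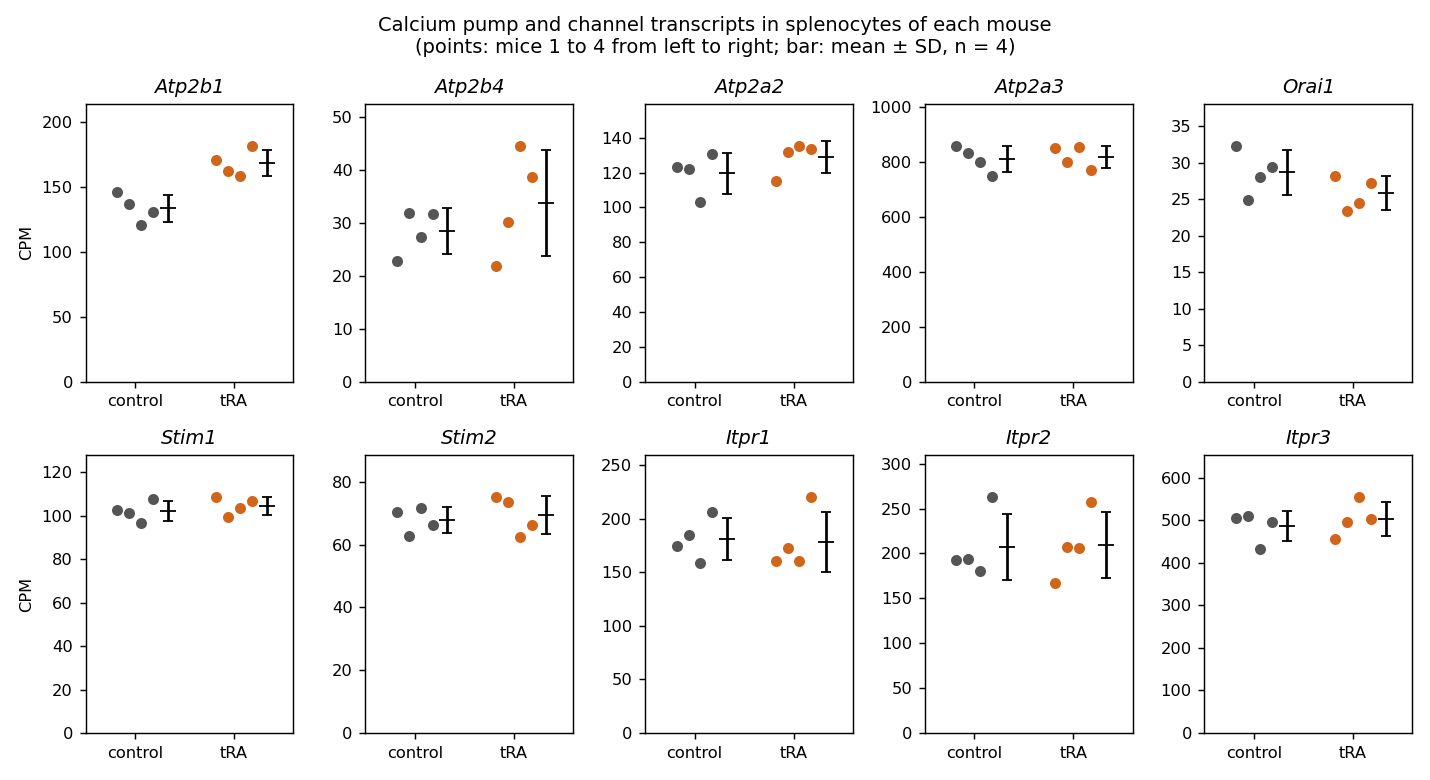
CPM (y axis, from 0, a scale per gene) of the 10 calcium pump and channel genes in the 4 control and 4 tRA mice (x axis). Points are mice and bars are means ± SD (n = 4). For Atp2b1 the tRA mice lie between 159 and 182 CPM, above the control mice at 121 to 146 CPM, and for the other 9 genes the groups overlap.

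Store-operated entry uses Orai1 as the pore and the Stim proteins as sensors of the store. Orai1 (ENSMUSG00000049686, chr5:123015074-123030456, plus strand) was expressed at 32.3, 24.8, 28.1 and 29.5 CPM in the control mice and 28.2, 23.3, 24.5 and 27.2 CPM in the tRA mice. Control mouse 1 was the highest of all and tRA mouse 2 the lowest, with overlap between the groups. Its log2 fold change of -0.15 (standard error 0.0979) was the lowest of the 10 genes and had an FDR of 0.793, and it was -0.088 without control mouse 1 and -0.21 without control mouse 2. Within the Orai family the most abundant transcript per length was that of Orai2, a related pore subunit, with 46.2 to 54.2% of the CPM per kb, against 25.2 to 30.4% for Orai3 and 18.3 to 23.9% for Orai1. Groups overlapped for each of these shares.

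Stim1 (ENSMUSG00000030987, chr7:102267806-102437319, plus strand) is the main sensor that gates Orai1. It was at 103, 101, 96.8 and 108 CPM in the control mice and 108.5, 99.4, 103 and 107 CPM in the tRA mice. This was the narrowest relative spread among the 10 genes, and the groups overlapped (log2 fold change 0.033, standard error 0.0607, FDR 0.922). Its difference was 0.0019 without control mouse 3 and 0.061 without control mouse 4. Stim2 (ENSMUSG00000039156, chr5:53998499-54121057, plus strand), which responds to smaller losses of stored calcium, ranged from 62.6 to 71.8 CPM in the control mice and from 62.4 to 75.0 CPM in the tRA mice (log2 fold change 0.033, standard error 0.0785, FDR 0.948). Its direction turned without control mouse 2 or without tRA mouse 1. Stim2 took 57.2 ± 2.20% (SD, n = 4) of the Stim CPM per kb in the control mice and 57.2 ± 2.34% (SD, n = 4) in the tRA mice. This order rests on the length used, since with the longest transcript of each gene the mean share of Stim2 over the 8 mice was 36.9%.

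The inositol trisphosphate receptors release calcium from the store. Itpr3 (ENSMUSG00000042644, chr17:27057304-27122223, plus strand) was expressed at 506, 509, 433 and 495 CPM in the control mice and 456, 496, 554 and 503 CPM in the tRA mice. Control mouse 3 was the lowest and tRA mouse 3 the highest, and the groups overlapped (log2 fold change 0.048, standard error 0.0829, FDR 0.920). Itpr2 (ENSMUSG00000030287, chr6:146108299-146502223, minus strand) was at 193, 194, 181 and 262.5 CPM in the control mice and 167, 207, 206 and 258 CPM in the tRA mice. Mouse 4 stood highest in both groups. The mean difference was 0.015 on the log2 scale (standard error 0.143, FDR 0.990). Itpr1 (ENSMUSG00000030102, chr6:108213096-108551109, plus strand) was at 175, 184, 159 and 207 CPM in the control mice and 160.3, 173, 161 and 219.9 CPM in the tRA mice. Mouse 4 was again the highest of each group, and the log2 fold change was -0.022 (standard error 0.114, FDR 0.981). The signs of all 3 receptors turned when single mice were left out, and that of Itpr1 also when library size alone was used for scaling. Itpr3 took 65.4 to 73.0% of the receptors' CPM per kb, Itpr2 16.0 to 21.1% and Itpr1 10.4 to 14.1%. With the longest transcript as length the mean shares over the 8 mice were 60.5, 19.5 and 20%, so the order of Itpr2 and Itpr1 rests on the length used. Both groups had their lowest Itpr3 share in mouse 4, at 65.4% in control mice and 65.5% in tRA mice.

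Compared per length over the 8 mice, Atp2a3 stood first with 154 ± 7.77 CPM per kb (SD, n = 8), followed by Itpr3 with 54.8 ± 4.01 and Atp2a2 with 20.5 ± 1.81. The ranges of these 3 genes did not overlap among themselves. Itpr2 followed at 14.1 ± 2.33 CPM per kb, Stim2 at 13.3 ± 0.950 and Orai1 at 11.9 ± 1.29, then Stim1 at 9.96 ± 0.403, Atp2b1 at 9.93 ± 1.38 and Itpr1 at 9.82 ± 1.24 (SD, n = 8 for each). From Atp2a2 down to Itpr1, the range of each gene overlapped that of the next, although Atp2a2 exceeded Itpr2 and Orai1 exceeded Stim1 in 8 of 8 mice. Itpr2 exceeded Stim2, and Atp2b1 exceeded Itpr1, in 4 of 8 mice, so neither pair was told apart over the 8 mice. By group, Atp2b1 exceeded Itpr1 in 1 of 4 control mice and 3 of 4 tRA mice. Stim1 exceeded Atp2b1 in 4 of 4 control mice and in 0 of 4 tRA mice. On this scale the place of Atp2b1 thus differed between the groups, by the contrast on which it was chosen. These counts per group were made with the exon union alone and rest on that length, since the places of these genes changed with the longest transcript, as given below. Atp2b4 was last, at 2.54 ± 0.624 CPM per kb (SD, n = 8), below Itpr1 in every mouse. With the length of the longest transcript in place of the exon union, 3 of the 10 genes kept their place, Atp2a3, Itpr3 and Atp2b4. Stim1 then stood at place 3 with 23.7 CPM per kb and Atp2b1 at place 5 with 21.2 CPM per kb, because the exon union of each is more than double its longest transcript.

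A list of 106 genes that handle calcium was described beside the 10 genes, which it includes. Of its genes, 105 were in the table and 92 were tested, and Itprip was not analysed here. Leaving out the 10 genes, and with them Atp2b1, which was picked on this contrast, 0 of 82 had an FDR under 0.1 by edgeR. An unadjusted p under 0.05 was found for 4 of the 82, of which 2 were higher and 2 lower in tRA mice, where all genes tested gave 6.49%. Groups did not overlap for 2 of the 82 with tRA above and 1 with tRA below, against 1.91% and 1.63% of all genes. The median log2 fold change of the list was 0.018, of the 82 genes 0.012 and of all genes tested 0.0014.

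Exchangers of sodium and calcium gave 2 of these 4 genes at an unadjusted p under 0.05. Slc24a1, the potassium-dependent exchanger known from rod photoreceptors, was scarce, at 0.812, 0.778, 0.665 and 0.679 CPM in the control mice and 1.53, 1.35, 1.46 and 1.10 CPM in the tRA mice. Every tRA mouse exceeded every control mouse, on 21 to 54 counts per mouse (log2 fold change 0.89, standard error 0.217, FDR 0.757). Slc8b1, the exchanger of the inner mitochondrial membrane and the most abundant of its role, was at 37.3 ± 3.41 CPM (SD, n = 4) in control mice and 32.1 ± 3.05 CPM (SD, n = 4) in tRA mice (log2 fold change -0.22, standard error 0.0929, FDR 0.757), with overlap. In the mitochondrial uniporter complex, Smdt1, a small subunit needed for uptake, was lower by mean in tRA mice with overlapping groups (log2 fold change -0.28, standard error 0.123, FDR 0.757). Mcur1, a regulator of the uniporter, separated the groups by a small margin, at 44.2 to 45.7 CPM in control mice and 45.7 to 47.7 CPM in tRA mice (log2 fold change 0.052, FDR 0.872). Letm1, a cation exchanger of the same membrane and the most abundant gene of the role, was at 83.4 ± 3.11 CPM (SD, n = 4) and 83.1 ± 1.07 CPM (SD, n = 4).

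Among 6 regulators of store-operated entry, the leading gene over the 8 mice was Saraf, which slows the entry after the store is full, at 208 ± 16.4 CPM (SD, n = 4) in control mice and 197 ± 38.0 CPM (SD, n = 4) in tRA mice. Septin7, a filament-forming septin, was the last of the 4 genes (log2 fold change 0.20, standard error 0.0757, FDR 0.757), and its groups overlapped through tRA mouse 3. In tRA mice its mean of 204 CPM was above that of Saraf. Of 17 genes of calmodulin, calcineurin and NFAT, 10 had a positive and 7 a negative log2 fold change. Calm3, a calmodulin gene, was at 158, 143.3, 142 and 143.1 CPM in the control mice and 136, 135, 141 and 132 CPM in the tRA mice. The tRA mice were all below the control mice, by a gap of under 1 CPM at its narrowest (log2 fold change -0.11, standard error 0.0602, FDR 0.787).

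In the remaining roles, no gene had an unadjusted p under 0.05 or groups that did not overlap. The 8 genes that make or remove inositol trisphosphate were led by Plcg2, the phospholipase of B cell receptor signalling, at 311 ± 20.3 CPM (SD, n = 4) in control mice and 313 ± 13.1 CPM (SD, n = 4) in tRA mice. The 7 measured partners of the receptors were led by Irag2, a protein of the reticulum membrane, at 381 to 460.5 CPM in control mice and 384 to 437 CPM in tRA mice. Other leading genes and their log2 fold changes were Bsg, a subunit of the plasma membrane pumps (-0.18), the Golgi pump Atp2c1 (0.096), Orai2 (0.082), the lysosomal channel Mcoln1 (0.047), the channel kinase Trpm7 (0.17), which was just below Cacna1e in control mice (103.6 against 104.8 CPM), and the reticulum chaperone Hspa5 (-0.23). Ryr3, the leading ryanodine receptor over the 8 mice, was at 8.17, 9.18, 6.27 and 17.2 CPM in the control mice and 7.09, 9.41, 8.95 and 7.82 CPM in the tRA mice. Control mouse 4 stood above all other mice and alone set the higher control mean, and without it the control and tRA mice covered similar ranges. The lead over Ryr1 rests on the same mouse, and in tRA mice the means were 8.34 CPM for Ryr1 and 8.32 CPM for Ryr3. The 3 small peptides that restrain the reticulum pumps, Pln, Sln and Mrln, were all too low to be tested.

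**Figure D3:**
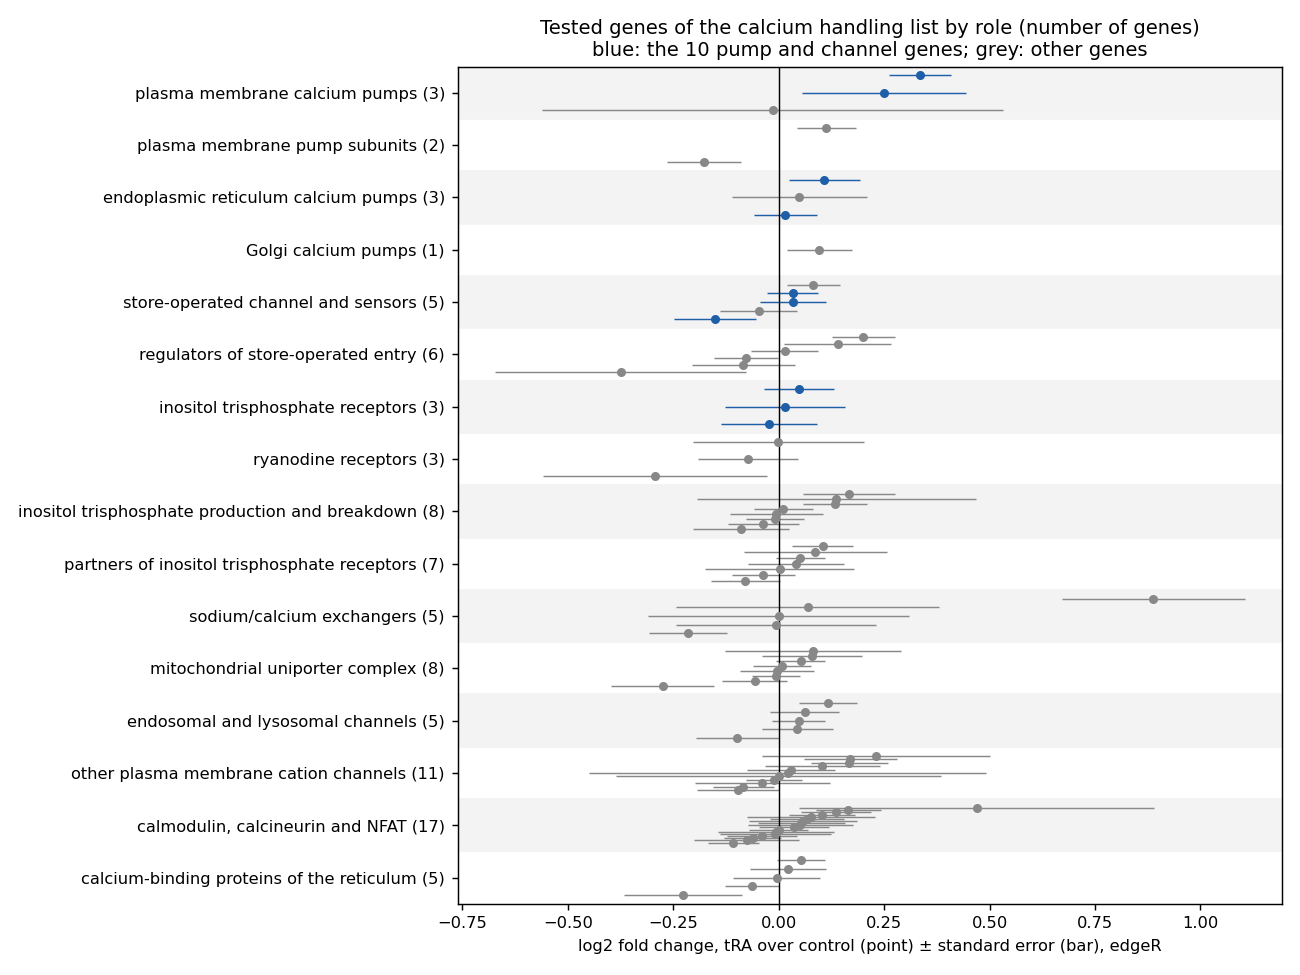
Log2 fold change of tRA over control (x axis) of the 92 tested genes of the calcium handling list, grouped by role (y axis, with the number of genes). Points are edgeR estimates, and bars are standard errors worked back from the F statistic of the edgeR test. Blue marks the 10 pump and channel genes, with Atp2b1 at 0.335 and Orai1 at -0.15. Atp2b1 was chosen on this contrast, so nothing is read from its bar. The point at 0.89 is Slc24a1.

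The genes whose log2 CPM followed that of Atp2b1 most closely over the 8 mice were Snx4, a sorting nexin of endosomes (Pearson r 0.972), Wdr46, a nucleolar protein (0.961), Dcun1d3, which promotes the attachment of Nedd8 to cullins (0.958), Clcn4, an exchanger of chloride and protons (0.950), and Klhl22, an adaptor of a cullin ubiquitin ligase (0.941). Snx4 was at 79.9, 79.5, 73.1 and 73.8 CPM in the control mice and 84.1, 83.9, 82.9 and 88.2 CPM in the tRA mice. Like Atp2b1, it was highest in tRA mouse 4 and lowest in control mouse 3, and the mice stood in the same order for both genes. The groups did not overlap for 4 of these 5 genes, with tRA above control, where all genes tested gave 1.91%, and Wdr46 was the exception. The 5 were picked by their likeness to Atp2b1, itself chosen on this contrast, so nothing is read from this count. All 8 mice share 1 contrast, so the difference between the groups enters each r. With the group means removed, 0 of the 5 were among the first 5, which were Gatad2b, Prkacb, Fam120a, Samd4b and Etnk1. Of the other 9 calcium genes, Atp2a2 was the most like Atp2b1 (r 0.533 over the 8 mice) and Orai1 the least (r -0.263). This order changed with the group means removed, when Itpr1 was the most like it (r 0.513), Orai1 had an r of 0.479, Atp2a2 of 0.338 and Atp2b4, the least like it, of -0.238.

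The pumps are related genes, and their sequence was compared to describe how alike they are. How far reads from one were counted on another was not tested. Each pump passes phosphate from ATP to an aspartate that is conserved in the whole class, and the coding sequence around it shows how alike the genes are at this conserved site. The 45 bases are given for 3 pumps from GENCODE M21 transcripts (GRCm38), in the direction of transcription, with the codon of the phosphorylated aspartate and the 4 that follow it in capitals. All 3 stretches lie within a single coding exon, at chr10:98999802-98999846 on the plus strand for Atp2b1, chr1:133731798-133731842 on the minus strand for Atp2b4 and chr11:72975591-72975635 on the plus strand for Atp2a3.
Atp2b1: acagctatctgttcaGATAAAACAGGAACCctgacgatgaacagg
Atp2b4: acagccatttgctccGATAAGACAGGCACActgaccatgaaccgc
Atp2a3: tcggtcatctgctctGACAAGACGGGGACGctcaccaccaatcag
Atp2b1 and Atp2b4, of the same family, had 35 of 45 bases in common, Atp2b4 and Atp2a3 30 and Atp2b1 and Atp2a3 27. In the 15 capitals these pairs had 12, 11 and 10 bases in common.

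Over the whole coding sequence, Atp2b1 and Atp2b4 had 72.1% identical bases where aligned, and the longest run shared by any of their transcripts was 26 bases. For Atp2a2 and Atp2a3 the values were 70.4% and 44 bases, and for Stim1 and Stim2 65.1% and 15 bases. The 3 inositol trisphosphate receptors had 70.1 to 71.8% identical bases in pairs, with shared runs of 28 to 32 bases, and Orai1 shared 72.4% with Orai2 and 73.0% with Orai3. Exons of 4 of the 10 genes overlap a gene on the opposite strand, by 7 bases for Orai1, 83 for Atp2a2, 108 and 181 for Itpr1 and 233 for Itpr3. Whether the counting used strand is not given in the sources used here, so reads from these overlaps cannot be told apart.

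Windows upstream of the transcription starts given by RefSeq were searched for the letters that receptors of retinoic acid are known to bind. RefSeq promoter windows (GRCm38.p6) matched 8 of the 10 genes, with 9 windows in all because Atp2b1 has 2, and Atp2a2 and Itpr1 had no entry. The half-site AGGTCA was looked for on both strands in the 250 bases before each start, and was present in 14.0% of 32851 windows of all genes and in 0 of the 9. Direct repeats of this half-site, which contain it, were also found in 0 of the 9, and in all windows in 11 with a spacing of 1 base, 3 with 2 bases and 3 with 5 bases. The absence says only that these letters are not in these windows. The Atp2b1 windows, at chr10:98914392-98914641 and chr10:98914902-98915151, had 43 and 41 CpG dinucleotides and 78.4 and 80.8% G and C, against medians of 6 CpG and 52.4% over all windows. In GENCODE M21, Atp2b1 starts at chr10:98914406, so the second window lies wholly inside the gene and the first mostly so. The Stim1 and Stim2 windows end just past the GENCODE M21 starts of their genes. The Atp2b4 window, at chr1:133753748-133753997, lies inside the gene as GENCODE M21 places it, before an internal start, and had 2 CpG and 45.6% G and C.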

How the data were processed

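Splenocyte RNA of 8 mice was sequenced. The authors deposited raw counts per gene. Their published methods name Tophat2 and HTSeq, whereas the processing notes in the labels name STAR 2.5.2b, featureCounts 1.5.1 and DESeq2 1.26.0 with GRCm38, and which made the deposited counts is not known. A deposited table of the authors' own comparison (mean of normalized counts, fold change, error, statistic and p-values) was not used. Genes were named and placed by GENCODE M21. In R 4.3.3, genes kept by filterByExpr (minimum count 10) were normalized by TMM and compared by edgeR 4.0.16, group only, all 8 libraries, FDR under 0.1. Each standard error is the size of the log2 fold change divided by the square root of the F statistic of the edgeR test. CPM uses TMM library sizes, and likeness used log2 CPM with a prior count of 2. Alternatives were DESeq2 1.42.0, limma-voom (limma 3.58.1), RLE factors, library size alone, 2 other filters, a replicate block and each mouse left out. Code was tested on simulated counts. Some results are not reported here. To look for a repeated deposit of 1 library, pairs within a group were compared by chi-square per degree of freedom (12.9 to 65.4), and no such pair was seen. The members and lists were chosen with earlier results of these data known. Named genes were the 10 members, per role of the calcium list the most abundant gene and those with an unadjusted p under 0.05 or groups that did not overlap, the 5 genes most correlated with Atp2b1, and the leading gene of each marker list. Other genes were named after their values were seen.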

Additional observations from a re-analysis of the deposited data

Results flagged for a closer look

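In 84 sets of 4 mice (1 gene or marker sum in 1 group), the gap between the extreme mouse and its nearest neighbour was divided by the range of the set, and 7 exceeded Dixon's critical value, where chance flags about 1 in 20 sets (4.2 of 84). Among the 10 genes, Itpr2 stood apart in control mouse 4 with 262.5 CPM, against 181 to 194 CPM in the other control mice, and Atp2a2 in tRA mouse 1 with 115.3 CPM, against 132 to 135 CPM. Of the further calcium genes, Calm3 was at 158.1 CPM in control mouse 1 and at 142 to 143.3 CPM in the others, and Irag2 was at 381.4 CPM in control mouse 4 and at 451 to 460.5 CPM in the others. Septin7 was at 184.3 CPM in tRA mouse 3, against 209 to 212 CPM. The macrophage and monocyte sum was 530.6 CPM in control mouse 2 and 392 to 415 CPM in the other control mice, and the endothelial sum was 265.8 CPM in tRA mouse 3 and 249.5 to 250 CPM in the others.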

How the results depend on the processing

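The 4 and 4 mice, at this depth, limit what can be told: differences as small as those of the 9 genes chosen by role lay within the spread between mice. The number of genes with an FDR under 0.1 was 0 by edgeR, 27 by DESeq2, 6 without a filter on low counts, 1 by limma-voom, and 0 to 3 with each mouse left out (3 without tRA mouse 4). Of the calcium list, DESeq2 called 1 and every other setting 0, and as the 1 was Atp2b1, chosen on this contrast, nothing is read from it. The cause was not tested. The log2 fold change of Atp2b1 was 0.28 to 0.38 with each mouse left out and 0.33 to 0.36 in the other settings. Among 150 values of the 10 genes under alternatives, 135 kept their direction and 15 did not. With a mouse left out, the log2 fold change ranged from -0.0215 to 0.0447 for Atp2a3, -0.0072 to 0.0795 for Stim2, -0.1384 to 0.0469 for Itpr1, -0.1009 to 0.1483 for Itpr2 and -0.0102 to 0.0911 for Itpr3. With library size alone it was 0.006 for Itpr1. Of the 5 genes most like Atp2b1, 3 were also among the first 5 by Spearman correlation.

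Replicate numbers are shared by the groups, and for numbers 1 to 4 the correlation between the deviations of the mouse pair was 0.157, -0.0229, -0.0140 and 0.259. As 2 of the 4 were not above 0.1, the numbers were not taken to pair the mice. With the number as a replicate block, 0 genes had an FDR under 0.1, 1200 had an unadjusted p under 0.05, and Atp2b1 had a log2 fold change of 0.34.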
